A study of Mus musculus with 22 samples.

Results

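The genes described here are 10 genes of brain endothelium out of the 34584 genes listed in the count tables, followed by organ and by carriage of the Tol transgene. They were picked by function. The group holds 6 transporters of the blood-brain barrier (Slc2a1, Mfsd2a, Abcb1a, Abcg2, Slco1c1 and Slco1a4), 2 tight junction genes (Cldn5 and Ocln) and 2 genes that endothelium expresses in most organs (Pecam1 and Cdh5). The comparisons were barrier genes against general endothelial genes by organ, and each gene, Slc2a1 first, in Tol against WT mice. Slc2a1 was singled out with earlier results of these data known, so its difference between genotypes is a description of these libraries and not independent support.

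Poly(A) RNA from frozen thymus, cerebrum and cerebellum of C57BL/6 mice was sequenced, to ask whether the transgene changes gene expression. Tol mice were heterozygous for Tol, a scrambled open reading frame of fluorescent proteins, firefly luciferase and Cre recombinase driven by the CAG promoter, which is active in most tissues, and placed 3′ of Col1a1 in C57BL/6J embryonic stem cells. WT mice were littermates without it. The mice were young adults by the age range in the study's methods, and the labels do not say whether a number in one organ marks the same mouse in another. Thymus and cerebrum had 4 Tol and 4 WT libraries each, and cerebellum had 2 Tol and 4 WT libraries, 22 in all. The study's legend gives 4 Tol and 4 WT mice for the sequencing, so the organs may share mice. Cerebellum had fewer Tol libraries than that. The labels do not tie libraries to animals, so p-values measure the spread between these libraries.

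The capillaries of the brain differ from those of other organs. Their endothelial cells are sealed by tight junctions and carry few vesicles, so that glucose, thyroid hormone and lipids cross through transporters while efflux pumps return many drugs to the blood. Wnt signals from the neural tissue hold this state. The thymus has vessels of its own, and its cortex is known for a less permeable lining than that of most organs. In a whole-tissue library, fewer endothelial cells and less RNA per endothelial cell cannot be told apart.

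Totals ran from 14543700 to 34777000 counts per library. Tol RNA stood at 147 to 174 CPM (counts scaled to a common library size with TMM factors) in the Tol cerebrum, at 191 and 140 CPM in the Tol cerebellum and at 19.8 to 25.4 CPM in the Tol thymus, against at most 0.12 CPM in any WT library. Cd3e, a T cell gene, was at most 0.651 CPM in any brain library and at least 433 CPM in every thymus library. The library labelled Tol cerebellum 2 went against its tissue label. Its Pcp2, a Purkinje cell gene, was 10.6 CPM against 115 to 285 CPM in the other 5 cerebellum libraries, and its Gabra6, a granule cell gene, was 12.8 CPM against 332 to 798 CPM. WT cerebellum 2 was the lowest of the 5, with 115 CPM of Pcp2 and 332 CPM of Gabra6 against at least 232 and 634 CPM in the other 4. In Tol cerebellum 2, Slc17a6, a glutamate transporter gene of other brain regions, was 516 CPM. It was also high in WT cerebellum 1 and 2 (184 and 212 CPM), against 2.84, 31.7 and 17.4 CPM in Tol 1, WT 3 and WT 4. Ttr, the defining marker of choroid plexus, was 1200 and 4372 CPM in WT cerebellum 2 and 4 and at most 3.13 CPM in the other cerebellum libraries. Cd4 was 41.1 CPM in WT cerebrum 3 and 19.1 CPM in Tol cerebrum 4, and at most 2.91 CPM in the other cerebrum libraries. Log2 fold changes of the members for Tol in cerebellum are given with and without Tol cerebellum 2. Counts of genes and values of other lists there include it. Results that changed without WT cerebellum 2 or 4 are given both ways.

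The upstream sequences of 3 members are shown because these members mark the extremes of the pattern below: Slc2a1 was the most abundant per length in brain, Cldn5 seals the junction, and Slco1a4 was nearly absent from thymus. Each is the 250 bases before the gene's start in RefSeq (GRCm38.p6), read in the direction of transcription, with capitals for letters that match 1 of the 5 motifs searched on either strand. These were CTTTGA (TCF/LEF factors of the Wnt pathway), ACGTG (HIF), AGGAAG (ETS factors), ATTGT (SOX factors) and GGGCGG (GC box).
Slc2a1 (chr4:119108495-119108744, plus strand): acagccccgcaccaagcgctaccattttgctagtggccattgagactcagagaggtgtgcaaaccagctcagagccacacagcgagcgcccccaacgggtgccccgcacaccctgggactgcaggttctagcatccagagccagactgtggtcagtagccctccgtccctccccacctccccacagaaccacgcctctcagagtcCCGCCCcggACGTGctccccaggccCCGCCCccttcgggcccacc
Cldn5 (chr16:18776597-18776846, plus strand): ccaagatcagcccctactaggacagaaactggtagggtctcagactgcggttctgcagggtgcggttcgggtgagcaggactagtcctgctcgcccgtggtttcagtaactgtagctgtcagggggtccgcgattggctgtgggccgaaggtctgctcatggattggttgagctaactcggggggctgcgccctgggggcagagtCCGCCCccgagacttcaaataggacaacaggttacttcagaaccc
Slco1a4 (chr6:141856221-141856470, minus strand): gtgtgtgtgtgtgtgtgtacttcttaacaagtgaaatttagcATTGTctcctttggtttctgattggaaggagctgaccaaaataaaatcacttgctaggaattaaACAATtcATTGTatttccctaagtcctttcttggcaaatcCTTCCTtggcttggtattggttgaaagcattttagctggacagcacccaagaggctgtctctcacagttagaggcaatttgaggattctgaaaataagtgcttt

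The first 2 of these windows were rich in G and C (66.4% and 59.6%, against a median of 52.4% over all 32851 RefSeq windows) and the third was not (39.2%). Capitals in Slc2a1 mark 2 GC boxes and 1 HIF match, in Cldn5 1 GC box, and in Slco1a4 3 SOX matches and 1 ETS match. Windows were listed for 8 of the 10 members, with more than 1 start for Abcg2 and Ocln. The TCF/LEF letters were found for 2 of the 8 members (Abcb1a and Mfsd2a) and in 13.8% of all windows, and the HIF letters for 2 (Mfsd2a and Slc2a1) and in 16.6%. ETS letters were found for 4 members (29.5% of all windows), SOX letters for 2 (27.7%) and GC boxes for 4 (32.7%). A member counts here if any of its windows matched, whereas the percentages are of windows. By window, TCF/LEF, HIF and SOX letters were each in 2 of 11 member windows. ETS letters and GC boxes were each in 6 of 11. None of these strings contains another, and a match is a description of the letters only.

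WT cerebrum was compared first with WT thymus. All 6 transporters and both tight junction genes were higher in cerebrum, by 1.59-fold (Abcg2) and upward, whereas Pecam1 was 4.55-fold lower and Cdh5 1.22-fold higher. In edgeR's quasi-likelihood test, 9 of 10 members were higher and 1 was lower (adjusted p under 0.05 over all genes). Organs differ in most genes, so these counts stand beside 40.9% of all 17413 genes tested higher in cerebrum and 43.4% lower. The median log2 fold change was 3.26 over the members and -0.06 over all genes. WT cerebellum gave 8 members higher and 1 lower than WT thymus, beside 41.7% of all genes higher and 41.8% lower, with medians of 3.63 over the members and 0.01 over all genes. There Mfsd2a was 20.9-fold, Ocln 16.7-fold, Abcb1a 13.3-fold, Cldn5 11.6-fold and Slc2a1 6.24-fold higher than in thymus, and Pecam1 was 4.43-fold lower. Without WT cerebellum 2 and 4 the same number of members was called (9), and Mfsd2a went from 4.39 to 3.91 on the log2 scale.

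**Figure D1:**
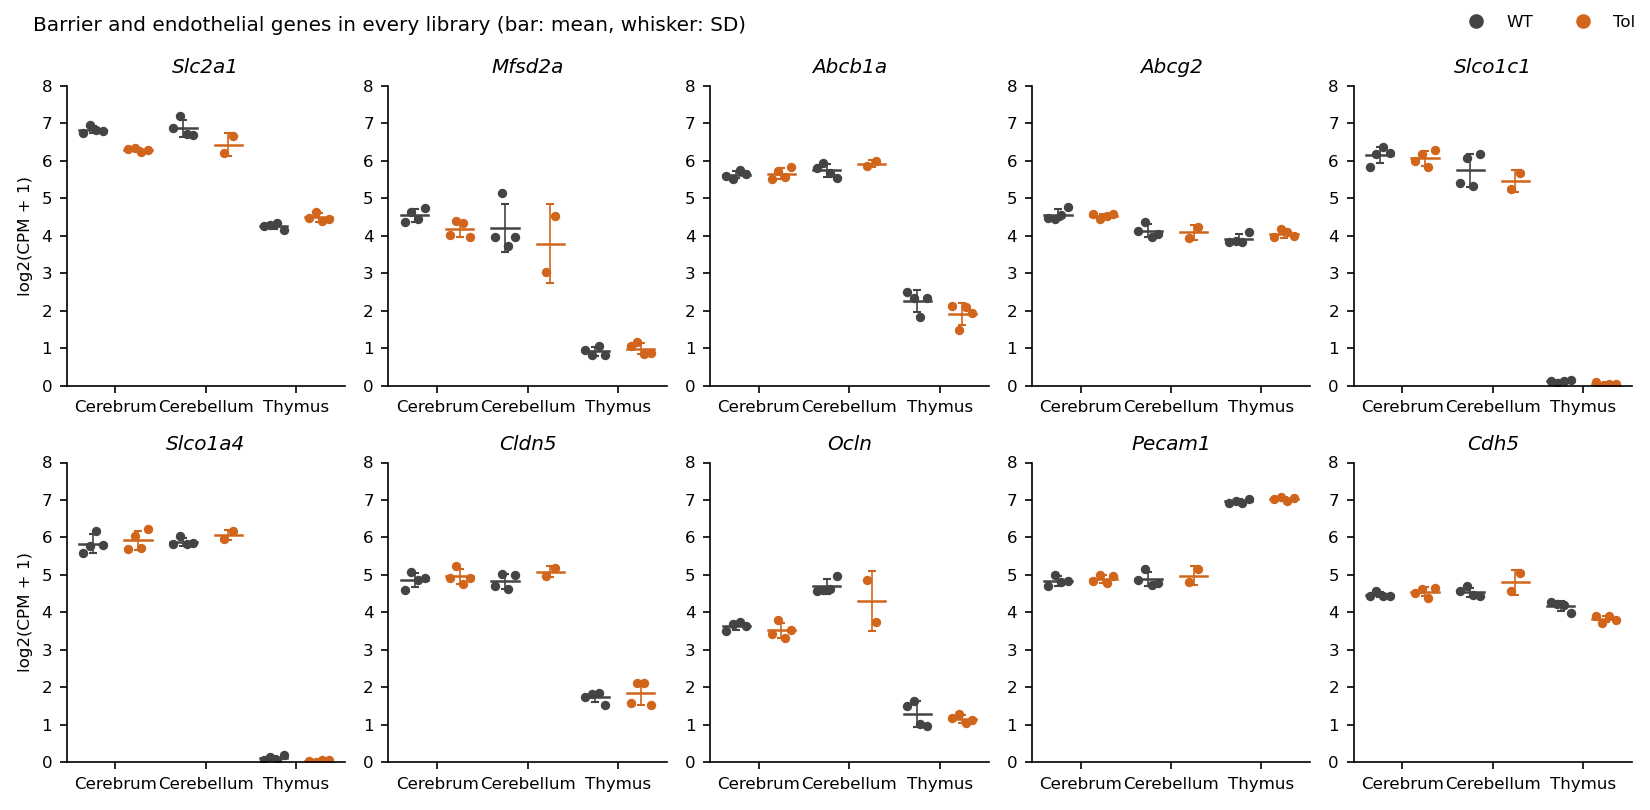
log2(CPM + 1) of the 10 genes in each of the 22 libraries, by organ (horizontal) and genotype (WT grey, Tol orange), with 1 point per library, a bar at the group mean and a whisker of 1 SD. Slco1c1 and Slco1a4 lie near 0 in all 8 thymus libraries, and Pecam1 alone is higher in thymus than in brain.

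Slco1c1 encodes OATP1C1, which carries thyroxine into the brain. Its 4 WT cerebrum libraries held 56.7, 71.2, 81.6 and 73.1 CPM, and the 4 WT thymus libraries held 0.094, 0.0484, 0.104 and 0.12 CPM. These thymus values are 9 reads in all, so the contrast is bounded by counting: the pooled ratio was 740 with an exact 95% interval of 389 to 1618, which covers counting error only. Slco1a4 encodes OATP1A4, a carrier of organic anions and some drugs. It read 46.9, 53.3, 71.3 and 54.7 CPM in WT cerebrum against 0.047, 0.0969, 0.0518 and 0.15 CPM in WT thymus. The pooled ratio was 593 with an interval of 312 to 1298, again against 9 reads. In WT cerebellum the pooled ratios were 570 (300.1 to 1247) for Slco1c1 and 612 (322 to 1339) for Slco1a4. In both genes the brain and thymus groups were far apart in every library.

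Relatives of Slco1a4 were measured in both organs. Slco1a6, a neighbouring paralogue, had 3.87 ± 1.11 CPM in WT cerebrum and 6.63 ± 1.16 CPM in WT thymus (SD, n = 4), and Slco1a5 had at most 1.02 CPM in any WT library. Reads shared between these similar transcripts were divided by the authors' quantification and may be misplaced. Of 10 organic anion transporters tested, both members included, 3 were higher and 7 lower in cerebrum (median log2 fold change -0.83), and Slco1a4 and Slco1c1 had the lowest p.

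Mfsd2a carries lysophosphatidylcholine with its docosahexaenoic acid across the barrier and holds back vesicle transport. It had 19.7, 23.7, 20.8 and 25.9 CPM in WT cerebrum and 0.94, 0.775, 1.09 and 0.778 CPM in WT thymus. The log2 fold change was 4.64 (SE 0.345, adjusted p = 4.04e-08). Abcb1a encodes P-glycoprotein, the main drug efflux pump of rodent brain capillaries. It had 47.7, 45.2, 52.9 and 49.2 CPM in WT cerebrum and 4.7, 4.12, 2.59 and 4.1 CPM in WT thymus, or 3.62 on the log2 scale (SE 0.155, adjusted p = 1.6e-10). Its paralogue Abcb1b stood at 3.89 ± 0.282 CPM in WT cerebrum and 5.65 ± 0.319 CPM in WT thymus (SD, n = 4), and reads can be split between the pair.

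Slc2a1 encodes GLUT1, the glucose carrier of brain endothelium and of many dividing cells. It had 106, 123, 112 and 111 CPM in WT cerebrum and 18.3, 18.6, 19.5 and 17 CPM in WT thymus. The log2 fold change was 2.60 (SE 0.109, adjusted p = 1.35e-10), 6.08-fold. Of 10 facilitative glucose transporters tested, 7 were higher and 2 lower in cerebrum (median 2.16), led by Slc2a3, the neuronal carrier, at 176 against 24.1 CPM, and Slc2a13, a myo-inositol carrier, at 224 against 2.94 CPM.

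Abcg2, the efflux pump BCRP, differed least of the transporters. WT cerebrum held 21.4, 21, 22.5 and 26.4 CPM and WT thymus 13.3, 13.7, 13.2 and 16.3 CPM, a log2 fold change of 0.67 (SE 0.117, adjusted p = 0.000152). That call was lost when libraries were scaled by their totals without TMM (0.25, adjusted p = 0.0664), a change that moved the median of all genes to -0.47. In WT cerebellum the values were 16.4, 19.8, 14.8 and 15.6 CPM, which overlap those of thymus (0.20, SE 0.116, adjusted p = 0.125).

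Cldn5, the claudin that sets the tightness of the endothelial barrier, had 23.4, 32.9, 28.3 and 29.1 CPM in WT cerebrum and 2.35, 2.57, 2.59 and 1.91 CPM in WT thymus. The log2 fold change was 3.58 (SE 0.156, adjusted p = 1.95e-10). Ocln, the junction protein occludin, had 10.3, 12, 12.4 and 11.4 CPM against 1.83, 2.13, 1.04 and 0.957 CPM, which gave 2.94 on the log2 scale (SE 0.228, adjusted p = 6.1e-08). The brain groups of both genes lay above every thymus library. Ocln is also expressed by epithelia. Of 11 other junction genes, 5 were higher and 3 lower in cerebrum, and Jam2 and Cldn12 had the lowest p (log2 fold changes of 3.19 and 3.47).

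The general endothelial genes behaved unlike each other. Pecam1, which encodes the adhesion molecule CD31, had 25, 31.1, 27.3 and 27.5 CPM in WT cerebrum and 119, 125, 121 and 130 CPM in WT thymus. The difference was -2.19 on the log2 scale (SE 0.0979, adjusted p = 2.53e-10). Cdh5, which encodes VE-cadherin of endothelial junctions, had 20.5, 22.9, 20.8 and 20.7 CPM against 18.5, 17.6, 17.5 and 14.8 CPM. Its log2 fold change was 0.29 (SE 0.0923, adjusted p = 0.0108), and it turned to -0.13 (adjusted p = 0.233) with library totals in place of TMM. The ratio of Pecam1 to Cdh5 within a library was 1.22 to 1.36 in WT cerebrum, 1.2 to 1.38 in WT cerebellum and 6.44 to 8.8 in WT thymus. CD31 is also known on leukocytes and platelets. The platelet list was low in every organ, with Itga2b between 0.742 and 2.5 CPM, while the 6 thymocyte genes summed to 7813 to 9060.2 CPM in WT thymus and 3.73 to 43.8 CPM in WT cerebrum. The part of these cells in the Pecam1 level was not tested.

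**Figure D2:**
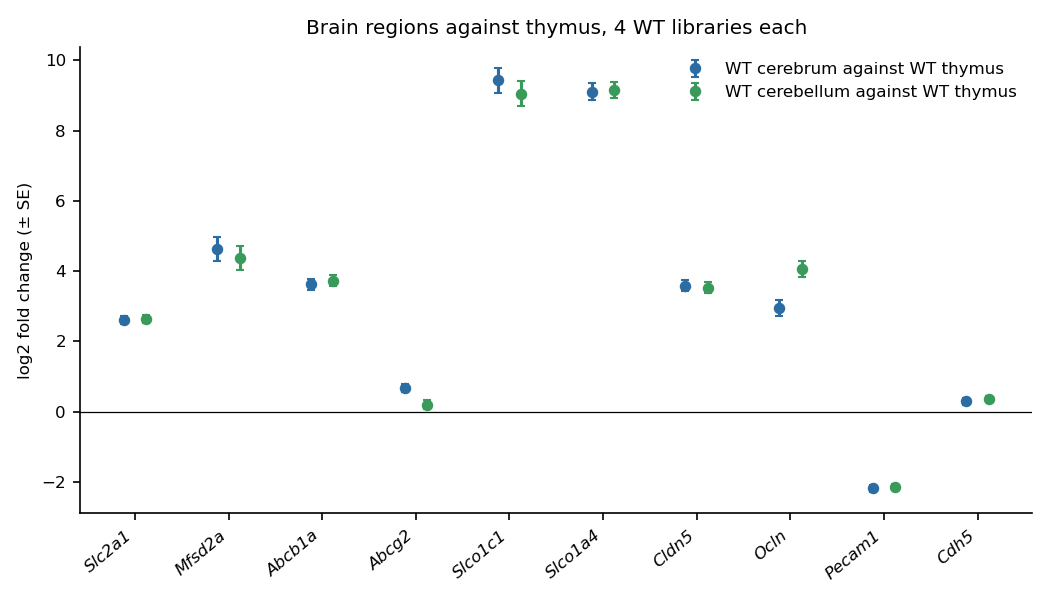
log2 fold change with its SE (vertical) of each gene in WT cerebrum (blue) and WT cerebellum (green) against WT thymus, 4 libraries each. Values run from 9.43 for Slco1c1 in cerebrum to -2.19 for Pecam1, and Abcg2 and Cdh5 lie nearest to 0. The values of Slco1c1 and Slco1a4 rest on 9 WT thymus reads each.

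Among 18 other pan-endothelial genes, 12 were higher and 1 was lower in WT cerebrum than in WT thymus, with a median of 1.31. Flt1, a VEGF receptor, was 94.8 against 8.08 CPM, and Icam2, an adhesion molecule that leukocytes also carry, was 2.25 against 47.2 CPM. Of 13 other barrier transporters 8 were higher and 4 lower (median 0.42), led by Slc40a1, the iron exporter, at 13.6 against 51 CPM and by the organic anion transporter Slc22a8 at 15.5 against 0.177 CPM. Of 12 genes of Wnt signalling and brain endothelial transcription 9 were higher and 1 was lower (median 1.71). The lower gene was Lef1, which T cell precursors also use, at 7.97 against 325 CPM, and Tnfrsf19 was 84.9 against 2.7 CPM. Of 8 pericyte genes 6 were higher and 2 lower (median 0.99), with Vtn at 53.1 against 1.61 CPM and Cspg4 at 23.9 against 0.941 CPM. In the 4 tested genes of fenestrated and venular endothelium 1 was higher and 3 were lower, with Ackr1 at 37.7 against 1.49 CPM and Aplnr at 0.384 against 3.2 CPM.

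To set the transporters against general endothelial genes in the same library, the mean log2(CPM + 1) of Pecam1 and Cdh5 was subtracted from that of the 6 transporters. The difference was 0.877, 0.794, 1.05 and 1.03 in WT cerebrum, 0.622, 0.874, 0.613 and 0.774 in WT cerebellum, and -3.64, -3.67, -3.69 and -3.54 in WT thymus. Brain and thymus were thus separated by 4.57 (cerebrum) and 4.35 (cerebellum) on the log2 scale. With the 18 other pan-endothelial genes as the reference, the separation was 2.85 and 2.81, so its size depended on the reference while every brain library stayed above every thymus library. The mean of Pecam1 and Cdh5 was higher in WT thymus (5.57) than in WT cerebrum (4.66). That of the 18 other genes was lower (2.87 and 3.68), so the first reference widened the separation. WT cerebellum lay 0.22 below WT cerebrum, with overlapping libraries, and 0.04 below with the other reference.

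**Figure D3:**
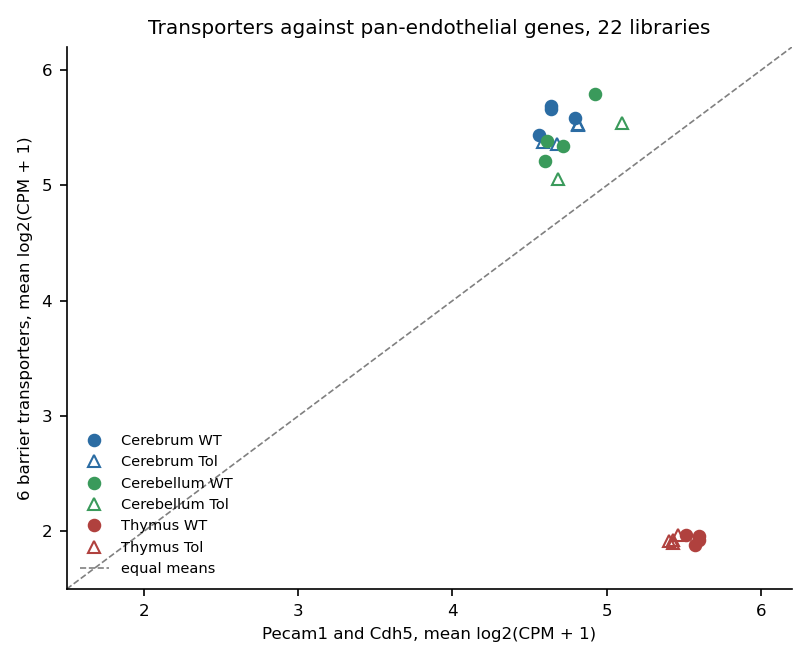
Mean log2(CPM + 1) of the 6 transporters (vertical) against that of Pecam1 and Cdh5 (horizontal) in the 22 libraries (filled circles WT, open triangles Tol, colour by organ, dashed line where both means are equal). All 14 brain libraries lie above the line and the 8 thymus libraries lie below it.

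Levels of different genes were compared per kilobase of exon. In WT cerebrum Slc2a1 led at 32.3 ± 2.06 CPM per kb (SD, n = 4), followed by Cldn5 at 20.1 ± 2.74, and neither overlapped its neighbour in the order by the union of exons. Slco1c1 (13.6 ± 1.99), Mfsd2a (10 ± 1.25), Abcb1a (8.9 ± 0.588) and Slco1a4 (8.82 ± 1.63) came next, with overlapping ranges among neighbours, and Slco1a4 lay apart from Cdh5 below it. Cdh5 (5.05 ± 0.265) and Pecam1 (4.45 ± 0.402) followed and overlapped, and so did Abcg2 (2.8 ± 0.307) and Ocln (2.73 ± 0.213). In WT thymus Pecam1 led at 19.9 ± 0.798 CPM per kb, with Slc2a1 at 5.23 ± 0.288 and Cdh5 at 4.07 ± 0.377, each apart from the next. This order depends on the length used. By the longest annotated transcript, Slco1c1 in WT cerebrum was 22.2 ± 3.25 CPM per kb and stood above Cldn5 (20.1 ± 2.74) with overlapping ranges, Slco1a4 was 14.8 ± 2.73, and Pecam1 was 8.05 ± 0.729, above Cdh5 at 5.32 ± 0.279. Pecam1 in WT thymus was then 36 ± 1.44 CPM per kb. Slc2a1 led in both brain regions and Pecam1 in thymus by either length. By exon union WT cerebellum had the order of cerebrum at its top, with Slc2a1 at 33.4 ± 5.59 and Cldn5 at 19.5 ± 2.87.

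The brain regions were then compared with each other. In WT cerebellum against WT cerebrum 1 member was higher and 1 lower, beside 26.4% and 24.6% of all genes. Ocln had 22.7, 23.1, 23.9 and 30.7 CPM in WT cerebellum, all above the cerebrum values (log2 fold change 1.12, SE 0.196, adjusted p = 0.000488). Abcg2 was lower (-0.46, SE 0.116, adjusted p = 0.00529), with no overlap. Among the other junction genes 4 of 11 were higher and 0 lower, led by Marveld2 (10.2 against 1.23 CPM), which encodes tricellulin. Beside a count of 0 lower by edgeR stand 7 of these 11 genes with an unadjusted p under 0.05 in either direction and 6 called by DESeq2. In the library labelled Tol cerebellum 2, low in cerebellar markers, Marveld2 was 0.928 CPM and Ocln 12.3 CPM. Tol cerebellum 1 had 12.9 CPM of Marveld2 and 28.1 CPM of Ocln. The part of cells other than endothelium in the levels of these genes was not tested.

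The remaining 8 members did not pass between the brain regions, and 2 of them, Slco1c1 and Mfsd2a, depended on WT cerebellum 2 or 4. Slco1c1 had 41.7, 66, 39.1 and 72.3 CPM in WT cerebellum, and its highest values were in WT 2 and WT 4. Its log2 fold change was -0.38 (SE 0.187, adjusted p = 0.112) with all libraries and -0.81 (adjusted p = 0.000517) without those 2. Mfsd2a had 14.7, 34.5, 12.3 and 14.8 CPM, so that WT 2 alone was high and WT 4, with the most Ttr, was not. It went from -0.25 (SE 0.271, adjusted p = 0.468) to -0.74 (adjusted p = 0.00228) without WT 2 and WT 4. Ocln kept 1.01 (adjusted p = 0.00377) and Abcg2 -0.56 (adjusted p = 0.00497) there, which made 4 members called in place of 2. Without WT 2 alone Mfsd2a was -0.70 (adjusted p = 0.00084), and without WT 4 alone Slco1c1 was -0.54 (adjusted p = 0.0265).

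In WT cerebellum Abcb1a (55.6, 60.9, 49.9 and 45.6 CPM), Slco1a4 (55.9, 64.9, 55.7 and 56.5 CPM) and Slc2a1 (117, 145, 105 and 102 CPM) overlapped cerebrum. So did Cldn5 at 24.9, 31.5, 23.5 and 30.8 CPM, Pecam1 at 28, 34.4, 25.4 and 26.8 CPM and Cdh5 at 22.9, 24.9, 21.2 and 20.5 CPM. Of the 18 other pan-endothelial genes 2 were higher and 3 lower in cerebellum (median 0.05), led by Cd34 at 25.8 against 88.3 CPM and Egfl7 at 12.8 against 21.4 CPM. In the fenestrated and venular list 3 of 4 tested genes were higher, among them Plvap, the diaphragm protein of fenestrae, at 15.7 against 6.78 CPM, and Ackr1 at 84.2 against 37.7 CPM. The list summed to 67 to 117 CPM in WT cerebellum and to 42.7 and 119 CPM in the Tol cerebellum. Whether these levels lie in endothelial cells was not tested.

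Tol was then compared with WT within each organ. In cerebrum, Slc2a1 had 79.3, 79.9, 74.3 and 78 CPM in Tol libraries against 106, 123, 112 and 111 CPM in WT libraries. Every Tol value was below every WT value. The log2 fold change was -0.54 (SE 0.0619), a level 1.45-fold lower in Tol, and with an adjusted p of 0.08 over all genes tested it did not pass edgeR's quasi-likelihood test. DESeq2 called it (-0.54, adjusted p = 2.11e-10), and so did the edgeR fit that shared 1 spread over all 22 libraries (-0.54, adjusted p = 0.0453). Leaving out 1 cerebrum library at a time gave -0.56 to -0.49 with adjusted p between 0.0731 and 0.306, and leaving out both libraries with Cd4 RNA gave -0.55 (adjusted p = 0.191).

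The same test called 0 of the 10 members in cerebrum, with 2 at an unadjusted p under 0.05 and 1 by DESeq2. Over all 15596 genes it called 0.0%, with 1506 genes at an unadjusted p under 0.05, and DESeq2 called 182. The Tol and WT groups did not overlap in 1 of the 10 members, beside 6.45% of all genes. Mfsd2a had 15.3, 20.1, 19.4 and 14.6 CPM in Tol cerebrum, overlapping WT (-0.37, SE 0.131, adjusted p = 0.396). The remaining 8 members lay between -0.12 (Ocln) and 0.10 (Cldn5) on the log2 scale, with SEs of 0.0835 to 0.159.

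**Figure D4:**
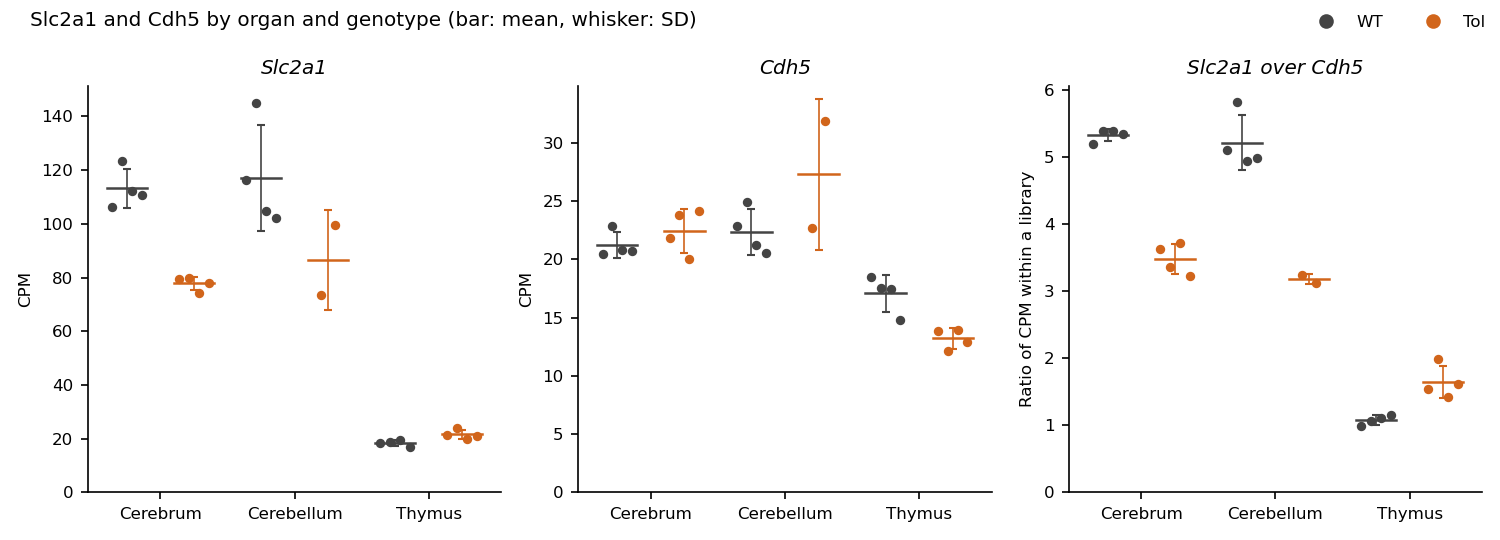
CPM of Slc2a1 (left) and Cdh5 (middle) and their ratio within a library (right) by organ and genotype (WT grey, Tol orange), with 1 point per library, a bar at the mean and a whisker of 1 SD. Slc2a1 in cerebrum separates the Tol libraries (74.3 to 79.9 CPM) from the WT libraries (106 to 123 CPM), and the order of genotypes is the opposite in thymus.

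Thymus gave the other order for Slc2a1, with 21.4, 24, 20 and 21 CPM in Tol libraries and 18.3, 18.6, 19.5 and 17 CPM in WT libraries. No Tol value fell among the WT values, although the lowest and highest were close (log2 fold change 0.24, SE 0.0817, adjusted p = 0.123). Cdh5 had 13.9, 12.1, 14 and 12.9 CPM in Tol thymus, all below WT (-0.36, SE 0.0897, adjusted p = 0.0837). DESeq2 called Cdh5 (adjusted p = 0.0188), and so did edgeR without Tol thymus 1 (adjusted p = 0.0267). Both settings also called many other genes, 1228 by DESeq2 and 2978 without Tol thymus 1, against 16 with all libraries. Pecam1 did not follow it, at 130, 135, 123 and 132 CPM in Tol thymus (0.07, SE 0.0553, adjusted p = 0.436).

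In thymus 8 members passed the filter on low counts and edgeR called 0 of them, with 2 at an unadjusted p under 0.05 and 1 by DESeq2, beside 0.0985% of all 16248 genes. Over all genes 3965 had an unadjusted p under 0.05 and DESeq2 called 1228. The groups did not overlap in 2 of the 8, beside 11.6% of all genes. Slco1c1 and Slco1a4 were filtered out, with 0 to 3 and 0 to 1 reads in a Tol library. Abcb1a had 3.4, 1.8, 3.28 and 2.83 CPM in Tol (-0.44, SE 0.221, adjusted p = 0.243) and Abcg2 14.6, 17.4, 16.3 and 14.9 CPM (0.15, SE 0.0919, adjusted p = 0.32), both overlapping WT. Mfsd2a, Cldn5 and Ocln had at most 3.36 CPM and log2 fold changes of 0.18, 0.18 and -0.25 with SEs of 0.229 to 0.277.

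The effect of Tol on Slc2a1 differed between cerebrum and thymus. The interaction of genotype and organ was -0.78 on the log2 scale (SE 0.0963, adjusted p = 0.00386, edgeR's quasi-likelihood test), the only member called of 10, beside 0.107% of all 17774 genes. It was -0.82 to -0.73 when 1 library at a time was left out, with adjusted p from 0.00192 to 0.0239. The call was lost in the fit over all 22 libraries (-0.78, adjusted p = 0.179). Each organ had its own WT libraries. The organs may share mice, which the labels do not settle, and this fit treated all libraries as independent. Cdh5 differed by 0.44 (SE 0.125, adjusted p = 0.126).

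In cerebellum the 2 Tol libraries had 73.5 and 99.7 CPM of Slc2a1, below the WT values of 102 to 145 CPM. The log2 fold change was -0.41 (SE 0.209, adjusted p = 0.957). Without the library labelled Tol cerebellum 2 it was -0.67 (adjusted p = 0.979) and without Tol cerebellum 1 it was -0.19 (adjusted p = 0.654), where the lone Tol library is assumed to vary like the WT libraries. edgeR called 0 of 10 members, with 0 at an unadjusted p under 0.05 and 0 by DESeq2, beside 0.0% of all 16662 genes (527 at an unadjusted p under 0.05, 4 by DESeq2). The groups did not overlap in 1 member, beside 10.5% of all genes.

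Several cerebellar values turned on the library labelled Tol cerebellum 2. Ocln had 28.1 and 12.3 CPM in Tol 1 and Tol 2, so that the log2 fold change of -0.29 became 0.16 without Tol 2. Mfsd2a had 7.26 and 22.3 CPM and went from -0.33 to -1.39 without Tol 2 and to 0.27 without Tol 1. Cdh5 had 22.7 and 31.9 CPM, Cldn5 30.6 and 35.5, Pecam1 26.9 and 34.6, Abcb1a 57.3 and 62.6, Slco1a4 61.8 and 70.6, Slco1c1 37.3 and 50.2 and Abcg2 14.5 and 17.9 CPM. In 9 of the 10 genes Tol 2 was thus the higher of the pair. Without it the log2 fold change of Cdh5 went from 0.32 to 0.021, Cldn5 from 0.28 to 0.14, Pecam1 from 0.13 to -0.090, Abcb1a from 0.20 to 0.11, Slco1a4 from 0.21 to 0.084, Slco1c1 from -0.30 to -0.56 and Abcg2 from -0.011 to -0.20. None of these passed the test with or without Tol 2. The effect of Tol on Slc2a1 in cerebrum minus cerebellum was -0.14 (SE 0.189, adjusted p = 0.902), and edgeR called 0 members and 0.0% of all 17130 genes, with 0 members and 1042 genes at an unadjusted p under 0.05.

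**Figure D5:**
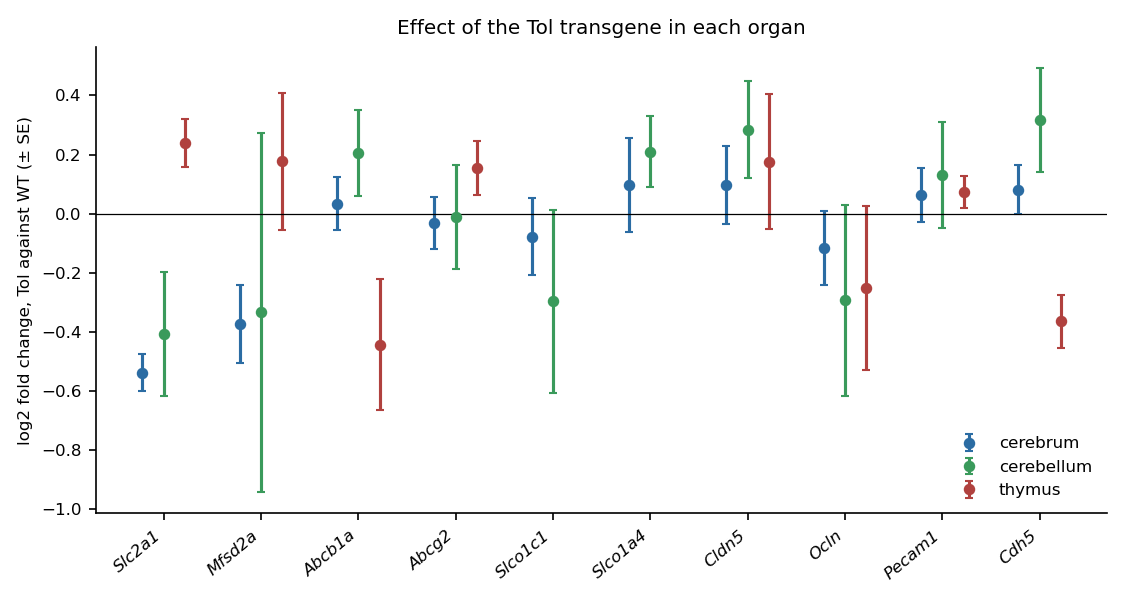
log2 fold change of Tol against WT with its SE (vertical) for each gene in cerebrum (blue), cerebellum (green) and thymus (red). Slc2a1 lies at -0.54, -0.41 and 0.24, and no value for Slco1c1 and Slco1a4 in thymus is drawn because they were filtered out.

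Set against Cdh5 in the same library, Slc2a1 stood at 5.19, 5.39, 5.38 and 5.34 in WT cerebrum and at 3.63, 3.36, 3.71 and 3.23 in Tol cerebrum. In WT cerebellum the ratio was 5.09, 5.81, 4.94 and 4.98, and in the Tol cerebellum it was 3.23 and 3.12. Of the other ratios to Cdh5 in these 2 libraries, those of Ocln (1.24 and 0.387) and Mfsd2a (0.319 and 0.699) lay far apart. Those of Slco1c1 (1.64 and 1.57) and Abcg2 (0.637 and 0.563) lay close together. Like Slc2a1, both lay below every WT cerebellum library (1.82 to 3.53 and 0.698 to 0.794). So did Pecam1, at 1.19 and 1.08 against 1.2 to 1.38 in WT cerebellum. The ratios of Mfsd2a, Abcb1a, Slco1a4, Cldn5 and Ocln overlapped WT, so a low ratio there was not particular to Slc2a1. For Slc2a1 the thymus had 0.987, 1.06, 1.11 and 1.15 in WT and 1.54, 1.98, 1.43 and 1.62 in Tol, where Cdh5 itself was the lower gene in Tol. These ratios were chosen after the values were seen and carry no test.

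Of the other endothelial and perivascular lists, edgeR called 0 genes in every organ. In cerebrum 3 of the 18 other pan-endothelial genes had an unadjusted p under 0.05, led by Kdr (24.6 against 18.3 CPM in WT, log2 fold change 0.43, SE 0.102, adjusted p = 0.242) and Clec14a (4.67 against 3.12 CPM). DESeq2 called Kdr. The median over the 18 was 0.05, against -0.00 over all genes. Pericyte genes had a median of 0.10, with Pdgfrb at 33.1 against 28.2 CPM. Astrocyte genes had a median of -0.14, with Gja1 at 205 against 242 CPM, and the red cell genes summed to 115 to 230 CPM in WT libraries and 122 to 178 CPM in Tol libraries. The 4 meningeal genes (median 0.67 in cerebrum, where 0 had an unadjusted p under 0.05, and 1.57 in cerebellum, where all 4 had) summed to 21 to 30.4 CPM in Tol cerebrum and 10.4 to 31.8 CPM in WT cerebrum, and to 67 and 91.9 CPM in the Tol cerebellum against 21.6 to 51.7 CPM in the WT cerebellum. The cerebellar values include the library labelled Tol cerebellum 2, and 527 of all 16662 genes had an unadjusted p under 0.05 in cerebellum. The part of the meningeal genes in the Slc2a1 difference was not tested.

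Of 10 facilitative glucose transporters in cerebrum, edgeR called 0 and 1, Slc2a1 itself, had an unadjusted p under 0.05, as DESeq2 called it alone. Slc2a9 came next at 0.607 against 0.856 CPM (-0.48, SE 0.325), and the median was 0.04. Slc2a1 is also a target of the hypoxia response, and of 13 other genes of hypoxia and glycolysis 0 were called by either tool and 2 had an unadjusted p under 0.05. These were Pdk1, at 83.3 in Tol against 73.2 CPM in WT, and Ndrg1, at 91.4 against 114 CPM, with a median of 0.00 over the list. Of 12 genes of Wnt signalling and brain endothelial transcription 0 were called by either tool and 3 had an unadjusted p under 0.05. Fzd4, a receptor of that pathway in vessels, was 16.3 in Tol against 21 CPM in WT (-0.36, SE 0.0971, adjusted p = 0.281), and Axin2, a Wnt target, was 31.2 against 27 CPM. The part of hypoxia or of Wnt signalling in the Slc2a1 difference was not tested.

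Of 13 other barrier transporters in cerebrum 0 were called by either tool, and 3 had an unadjusted p under 0.05, with Slc40a1 at 18.7 against 13.6 CPM and Tfrc, the transferrin receptor, at 180 against 139 CPM. Both lie on the iron route across the barrier, but whether their differences lie in endothelial cells was not tested. In thymus 5 of the 18 other pan-endothelial genes had an unadjusted p under 0.05, beside 3965 of all 16249 features, a like share, with Erg at 0.588 against 1.35 CPM and Eng at 24.4 against 28.3 CPM, and the median was -0.17 against 0.01 over all genes. Of 11 other junction genes in thymus 3 had an unadjusted p under 0.05, and DESeq2 called Jam2 (4.24 against 6.54 CPM) and Tjp1 (12.9 against 18.2 CPM) among its 1228 calls.

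The genes whose pattern over the 22 libraries was most like that of Cldn5 were Tspan3, B230217C12Rik, Slc38a3, Svip and Krt222, with Pearson's r of 0.992 to 0.993 on log2(CPM + 1) among 15703 genes. Slco1a4 was the nearest member (r = 0.992, place 12), and Pecam1 ran opposite (r = -0.977). These libraries share the contrast of brain and thymus, which sets such values. Within the 8 cerebrum libraries the genes most like Slc2a1 were Rhoa, Srf, Txndc15, Stk40 and Tufm (r = 0.947 to 0.967 among 14685 genes). The nearest member there was Mfsd2a (r = 0.732, place 626), and Cldn5 had r = -0.0675. Those 8 libraries share the contrast of genotypes.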

How the data were processed

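RNA was taken from thymus, cerebrum and cerebellum of Tol and WT mice, and stranded libraries of poly(A) RNA were read as single ends. The authors quantified transcripts with Salmon 0.14.1 on GRCm38 with the Tol transcript added, and the deposited values are the authors' estimated count of each gene (whole numbers, not normalized). How transcripts were summed to genes, and the strand setting of the counting, are not given in the sources used here. Groups and replicate numbers came from the labels. In the tables, columns named MRT were taken as Tol, the genotype other than WT.

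From the counts, TMM factors gave CPM, and edgeR 4.0.16 (R 4.3.3) gave quasi-likelihood F tests after filterByExpr with Benjamini-Hochberg adjustment over all genes tested. Genotypes were compared inside each organ, the 12 WT libraries were fitted by organ, and an interaction tested whether effects differed. SEs were taken from the F statistic. DESeq2 1.42.0 and other scalings, filters and left-out libraries were alternatives, and 2 pairs of libraries were left out together after the data were seen. CPM per kb used exon lengths of GENCODE vM21. Totals ran from 14543700 to 34777000 counts, and replicates differed beyond sampling noise. A level under 3 counts was treated as not detectable. Most WT thymus libraries fell under it for Slco1c1 and Slco1a4, and their CPM are printed as counted. Intervals and floors cover counting error only.

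The members, lists and tests were chosen with earlier results of these data known. Named were all 10 members, the 2 genes of a list with the lowest unadjusted p, the first marker of each marker list, the 5 genes most like Cldn5 and Slc2a1, and the Tol transcript, except 1 gene that is not reported here. Pcp2, Gabra6, Slc17a6 and the paralogues were named after their values were seen. On simulated counts, 2-fold changes of 200 genes were recovered at 77% in cerebrum (15597 genes), 85% in thymus (16249 genes) and 0% in cerebellum (16662 genes). Same-numbered Tol and WT libraries deviated together with correlations of -0.19 to 0.131 in cerebrum and -0.0583 to 0.0425 in thymus, and of -0.149 and 0.522 for the 2 numbers shared in cerebellum. Not every pair was over 0.1, so numbers were not taken to pair samples. Genes that overlap Slc2a1, Abcb1a or Cdh5 on either strand had no row of their own in the tables used.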

Additional observations from a re-analysis of the deposited data

Results flagged for a closer look

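Single libraries stood far from the other 3 of their group in 5 of 55 checks of a member or of the transporter difference, where chance gives about 1 in 20. Mfsd2a was 34.5 CPM in WT cerebellum 2 against 12.3 to 14.8 CPM in the other 3, and Slco1a4 was 64.9 CPM in that library against 55.7 to 56.5 CPM. Ocln was 30.7 CPM in WT cerebellum 4 against 22.7 to 23.9 CPM. Both libraries held choroid plexus RNA, more of it in WT 4, and WT 2 also had the lowest cerebellar markers of the WT libraries (Gabra6 332 CPM against 634 to 798 CPM). Their part was not tested. Cdh5 was 22.9 CPM in WT cerebrum 2 against 20.5 to 20.8 CPM, and Abcg2 was 16.3 CPM in WT thymus 4 against 13.2 to 13.7 CPM.

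The effect of Tol on Slc2a1 differed between cerebrum and thymus by -0.78 on the log2 scale, by a test of the interaction (edgeR's quasi-likelihood test, adjusted p = 0.00386). Slc2a1 was lower in 4 of 4 Tol cerebrum libraries and higher in 4 of 4 Tol thymus libraries than any WT library of that organ. Of all genes, 6.45% in cerebrum and 11.6% in thymus had groups that did not overlap, in either direction. In neither organ did Slc2a1 pass edgeR's quasi-likelihood test (adjusted p = 0.08 and 0.123). The interaction lost its call in the edgeR fit over all 22 libraries (adjusted p = 0.179), and Slc2a1 was singled out with earlier results known.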

How the results depend on the processing

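Of the Tol comparisons, Slc2a1 in cerebrum stayed at -0.54 and became significant with DESeq2 and with all 22 libraries in one fit (-0.54 in both), which made 1 member called in cerebrum under each. In thymus DESeq2 called 1 member (Cdh5), and leaving out 1 library gave 0 to 1. The Slc2a1 interaction of cerebrum and thymus lost its call with all 22 libraries in one fit (-0.78). That of cerebrum and cerebellum ran from -0.36 to 0.10 over single libraries left out, turning without Tol cerebellum 2. Between WT cerebellum and cerebrum 4 members were called without the libraries with choroid plexus RNA. Transporters relative to Pecam1 and Cdh5 differed from thymus by 5.63 (cerebrum) and 5.41 (cerebellum) with a pseudocount of 0.1, by 4.23 and 3.91 in Tol libraries, and by 2.85 and 2.81 against 18 other pan-endothelial genes, where cerebellum minus cerebrum was -0.042. By the longest transcript, levels in WT cerebrum were 34.7 CPM per kb for Slc2a1, 22.2 for Slco1c1, 14.8 for Slco1a4 and 8.05 for Pecam1, the last 3 over 1.5 times those by exon union. Where no construction shows the cause, the cause was not tested.

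Members also changed sign, of which Cdh5 (WT cerebrum against thymus) had passed its test. Leaving out single libraries gave ranges in Tol cerebrum of -0.034 to 0.086 (Abcb1a), -0.067 to 0.049 (Abcg2), -0.020 to 0.23 (Slco1a4) and -0.0050 to 0.18 (Cldn5), and in Tol cerebellum of -1.39 to 0.27 (Mfsd2a), -0.20 to 0.15 (Abcg2), -0.98 to 0.16 (Ocln) and -0.090 to 0.31 (Pecam1). Between WT brain regions they were -0.077 to 0.099 (Slc2a1), -0.049 to 0.16 (Slco1a4), -0.13 to 0.027 (Cldn5) and -0.059 to 0.097 (Pecam1). Without the libraries with choroid plexus RNA, Tol cerebellum gave 0.14 (Mfsd2a), 0.061 (Abcg2) and 0.12 (Slco1c1), and the brain regions gave -0.040 (Slc2a1), -0.026 (Slco1a4) and -0.060 (Pecam1). Library totals without TMM gave -0.13 for Cdh5 (cerebrum against thymus), -0.063 for Abcg2 (cerebellum against thymus) and 0.10 for Cldn5 between brain regions, where Tol libraries gave 0.12. Between brain regions DESeq2 gave -0.0032 (Slc2a1), -0.0087 (Slco1a4) and -0.0037 (Pecam1), and its size factors in edgeR gave -0.0046 (Slco1a4) and -0.00025 (Pecam1). Thinned counts gave 0.016 for Abcg2 in Tol cerebellum.

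The replicate numbers were also entered as a block. Slc2a1 in cerebrum was then -0.53 (adjusted p = 0.35) and its interaction with thymus -0.78 (adjusted p = 0.0259). Pecam1 in Tol cerebellum was -0.00052, and Abcb1a in Tol cerebrum was -0.0041 with the block and the GC and length trend removed. Slco1c1 was called between WT brain regions under the block (-0.41, adjusted p = 0.0481). The cerebellum, with 2 Tol libraries, recovered 0% of simulated 2-fold changes and 61.5% of 4-fold changes, so its missing calls say little about such changes.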
